A study of Mus musculus with 24 samples.

Results

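The comparison described here set early carcinoma against normal mammary gland: the 3 PyMT samples taken at week 10 against the 3 FVB samples of the same week, 6 of the 24 samples of the series. PyMT samples were mammary tumors of F1 females heterozygous for the transgene of FVB/N-Tg(MMTV-PyVT)634Mul/J. FVB samples were mammary glands of homozygous FVB females of the same age without the transgene. Each group held 3 mice, 1 library each, and the members were chosen by genotype and week alone. The other 18 samples were the same genotypes at weeks 6, 8 and 12 (hyperplasia, adenoma and late carcinoma in PyMT). They enter here only where week 10 is compared with them. The study chose the weeks to match the stages, and it reported that a pathologist's look at PyMT tumor samples showed features typical of them. In this model the mouse mammary tumor virus promoter directs the transgene to mammary epithelium, so PyMT glands hold transformed epithelium beside the host's own stroma, and the transgene itself is not measured here.

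Polyoma middle T is a membrane-bound viral protein that gathers host Src-family kinases, Shc, Grb2 and PI3K, and so drives the RAS-ERK and AKT pathways without a ligand. The virgin mouse mammary gland is a sparse tree of luminal and myoepithelial cells in a large pad of adipocytes, with fibroblasts, vessels and macrophages around the ducts. In pregnancy the luminal cells become alveolar, under prolactin, STAT5 and ELF5, and secrete caseins, whey proteins and lipid. From tissue staining, the study reported that its carcinoma samples were in general mostly tumor cells, with few stromal and muscle cells and rare inflammatory cells. Fewer cells of a type and less RNA per cell cannot be told apart from the counts of such bulk samples.

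The 6 libraries held between 7200680 and 11928398 counts assigned to genes. Luminal and adipocyte markers were detected in all 6. Features of single libraries touch many results. Skeletal muscle markers (20 genes) took 13.96% of all counts in FVB replicate 3 and 1.35% in PyMT replicate 3, against 0.016% or less in the other 4 libraries. Of 3799 genes of middling expression, 4.40% were at 0 in FVB replicate 3 and 1.26% in PyMT replicate 2, against at most 0.369% in the others, and in PyMT replicate 2 and all 3 FVB libraries low counts clustered near 12 to 19 rather than near 1. Across genes, Spearman's rho ranged from 0.944 to 0.964 among the PyMT libraries, was 0.937 between FVB replicates 1 and 2, and was 0.861 and 0.845 between FVB replicate 3 and those 2. Refits with divided counts, with muscle markers left out of the scaling and without both libraries numbered 3 are given in the closing section. They show how the counts of called genes moved, and the part of these features in single results was not tested.

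Of 14918 genes tested, 2076 (13.9%) were differentially expressed genes (DEGs), meaning that the adjusted p was below 0.05 and that PyMT and FVB differed by more than 1 on the log2 scale. In PyMT 720 (4.83%) were higher and 1356 (9.09%) lower. These shares are the background against which the counts of each gene group below are read. The gene groups were chosen with earlier results of these data known, so a group above these shares is not independent evidence. Left out in turn, PyMT replicates 1 and 3 brought the DEGs to 1262 and 1370, PyMT replicate 2 brought those higher to 438 and those lower to 1055, and without both libraries numbered 3 there were 1969. The 3 PyMT values lay wholly above the 3 FVB values for 18.9% of genes and wholly below for 21.6%. Scaled by library size alone, in place of the trimmed mean of M-values, the median log2 fold change of all genes moved by 0.29 and the DEGs split into 989 higher and 956 lower (49.2% lower against 65.3%). Among genes of the 42 lists described here, 663 were tested, of which 87 rose and 184 fell. Values below are normalised counts (counts divided by a size factor of each library), always in the order replicate 1, 2 and 3, and a value with ± is the log2 fold change of PyMT over FVB with its SE, also after "rose by" and "fell by". A call is said to be kept where it held in all 6 fits that left out 1 library.

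**Figure D1:**
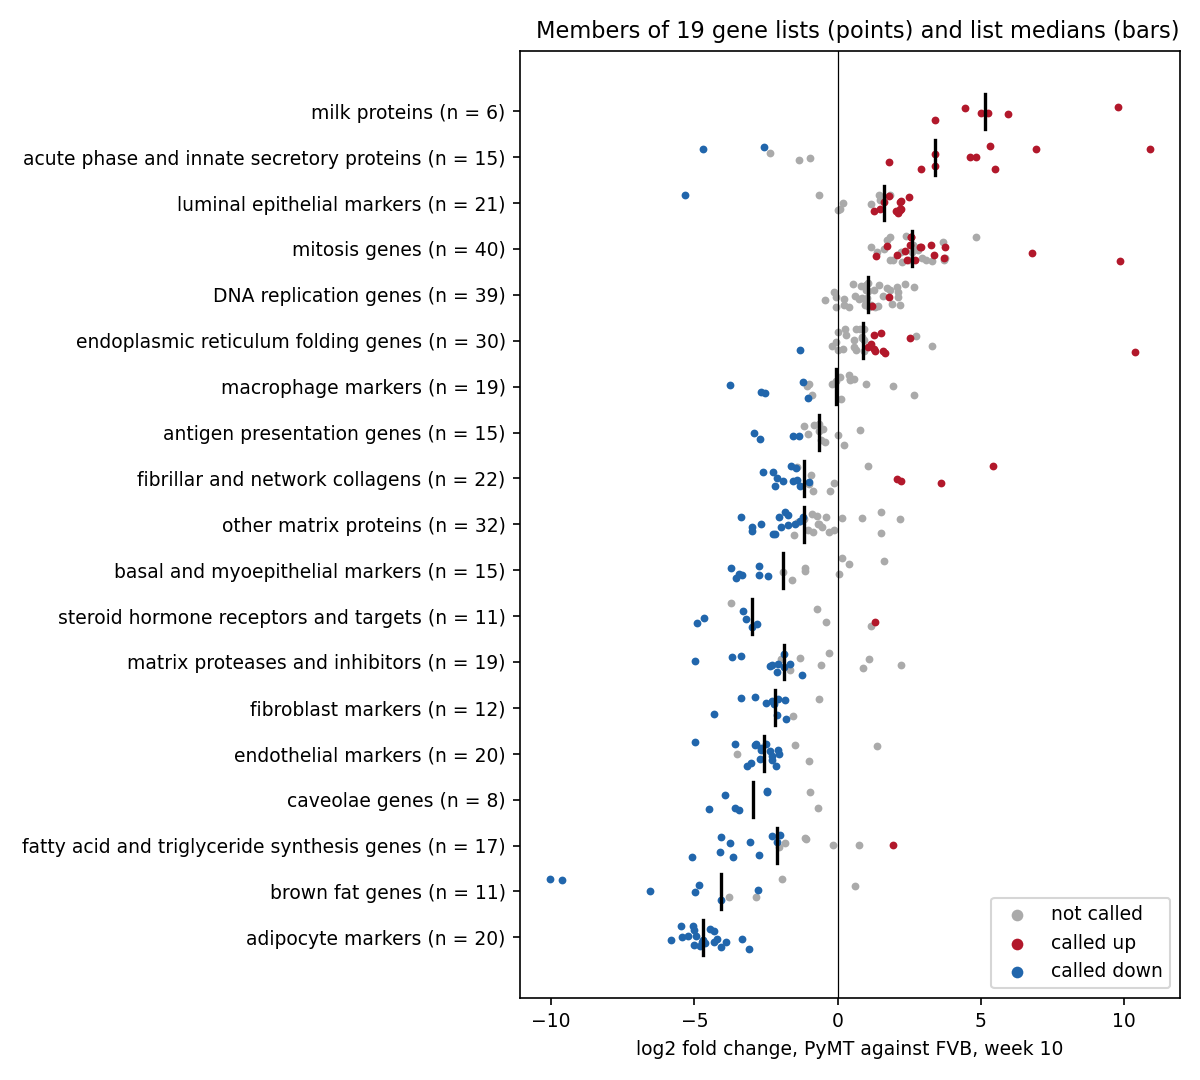
Log2 fold change of PyMT over FVB at week 10 for the tested members of 19 gene lists, with 1 point a gene coloured by its call and a bar at each list's median. Milk protein genes had a median of 5.13 and adipocyte markers one of -4.71, while macrophage markers had one of -0.06 (0.27 when scaled by library size alone).

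Milk protein transcripts were abundant in the early carcinomas and low in the age-matched glands. Of 8 milk protein genes, 6 passed the expression filter and those 6 rose, with a median log2 fold change of 5.13 against 0.01 over all genes, and their group ranges did not overlap. Csn2, which encodes beta-casein, was at 3753, 966 and 6450.1 in PyMT and at 34.5, 82.2 and 199 in FVB (5.24 ± 0.89, adjusted p = 0.00631). Csn3, the kappa-casein that stabilises the micelle, was at 28873, 38316 and 37074 in PyMT and 1124, 909 and 2997 in FVB (4.43 ± 0.49, adjusted p = 0.00106). Wap, the whey acidic protein, was close to unmeasured in normal gland, with 939.5, 513 and 1441 in PyMT against 0.719, 0 and 3.13 in FVB. With 3 raw counts over the FVB libraries, the ratio for Wap was 1005, scaled by the size factors like all count ratios here. Its 95% counting interval ran from 343 to 4874 and covers counting error only. That interval takes counts as independent, while low counts clustered near 12 to 19 in these FVB libraries. Calls for Csn1s1, the alpha-S1 casein, and Lalba, the alpha-lactalbumin of lactose synthesis, were not kept. The 8 genes together took 0.610% to 0.789% of all PyMT counts but 0.0147% to 0.0380% of FVB counts.

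STAT5 carries the prolactin signal to the milk protein genes and binds the palindrome TTCNNNGAA. Among 6 milk protein genes with a promoter in the RefSeq table (250 bases before to 50 after the start, GRCm38.p6), 4 held these letters (66.67%), against 8.298% of all 32851 promoters. A gene counted if any of its promoters matched, whereas the share of all was taken per promoter, so the units differ. The window of Wap held 0 matches. The beta-casein promoter is shown because the gene is the field's marker of this programme, and the capitals mark the match. It lies at chr5:87699376-87699675 on the minus strand.
Csn2: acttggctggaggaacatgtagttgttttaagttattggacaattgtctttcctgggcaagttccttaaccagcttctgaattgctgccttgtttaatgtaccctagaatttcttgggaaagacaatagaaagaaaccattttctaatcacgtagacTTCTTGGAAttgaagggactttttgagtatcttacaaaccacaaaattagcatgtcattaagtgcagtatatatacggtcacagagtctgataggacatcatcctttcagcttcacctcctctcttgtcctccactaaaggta
The motif reads alike on both strands, and a match describes the sequence, not a bound site.

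The wider secretory programme rose in part. Of 14 genes for milk fat globule and secretory differentiation, 6 rose and 1 fell, and 4 of the 7 calls were kept. Elf5, the transcription factor that specifies alveolar cells, was at 3540.2, 3472 and 4819 in PyMT and 779.8, 1018 and 418 in FVB (2.47 ± 0.35, adjusted p = 0.00303). Slc28a3, a nucleoside transporter, was higher by 3.90 ± 0.29 (adjusted p = 0.00022), and Folr1, the folate receptor found in milk, went from 11.5, 0 and 34.4 in FVB to 815, 570.1 and 937 in PyMT (5.83 ± 0.94, adjusted p = 0.00518). Slc30a4, the zinc transporter of milk, rose by 1.04 ± 0.18 (adjusted p = 0.00674), a call that was not kept. The gene called against the rest was Prlr, the prolactin receptor, at 2128, 2079 and 2292 in PyMT and 5558, 6089 and 4347 in FVB (-1.25 ± 0.21, adjusted p = 0.00571). Stat5a had 0.47 ± 0.20 and Stat5b -0.13 ± 0.24, neither of them called. The receptor transcript was thus lower in the samples in which the casein transcripts were higher.

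The genes with the greatest increases were close to silent in the normal glands. Acox2, a peroxisomal acyl-CoA oxidase, was at 333, 307 and 196 in PyMT and without a count in any FVB library. Against a floor of 3 counts over the group it was 279-fold higher. The floor and the counting intervals take counts as independent. Low counts clustered near 12 to 19 in these FVB libraries, so the folds may be smaller than such bounds. At weeks 6, 8 and 12 the log2 fold changes of Acox2 were 3.30, 4.00 and 3.39. Abpb, a secreted androgen-binding protein, was at 922, 2192 and 2109 against 0.719, 1.00 and 0, a count ratio of 2609 (95% counting interval 722 to 21546). Car6, the secreted carbonic anhydrase of saliva and milk, was at 1755, 675 and 2306 against 0, 1.00 and 3.13, a count ratio of 1652 (565 to 8015). Abpb and Car6 thus rest on 2 and 3 counts in FVB. Bhlha15, the transcription factor MIST1 of professional secretory cells, was at 585, 675 and 882 against 0, 2.00 and 1.56, a count ratio of 725 (248 to 3519). The RIKEN gene 2310057J18Rik was higher by 9.28 ± 0.36 (adjusted p = 5.12e-05) and Lao1, an L-amino acid oxidase of milk, by 6.37 ± 0.90 (adjusted p = 0.00298).

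Innate defence proteins that epithelia secrete rose beside them. Of 15 acute phase and innate secretory genes, 10 rose and 2 fell, and 11 of these 12 calls were kept. The exception was Pigr, the receptor that carries IgA into milk. Lcn2, the iron-siderophore binding lipocalin, was at 13226, 14507 and 14073 in PyMT and 743, 468 and 535 in FVB (4.63 ± 0.27, adjusted p = 0.000103). Lbp, the lipopolysaccharide binding protein, rose by 3.39 ± 0.25 (adjusted p = 0.000227) and Expi (Wfdc18), a secreted WAP-domain protein, by 3.42 ± 0.34 (adjusted p = 0.000707). The serum amyloid genes were at the edge of detection in FVB: Saa2 was at 707, 602 and 1157 against 0.719, 0 and 0, a count ratio of 2540 (95% counting interval 455 to 100349), and Saa1 at 738, 429.7 and 1125 against 0, 1.00 and 23.5 (6.94 ± 1.16, adjusted p = 0.00605). Orm1, the plasma carrier orosomucoid, fell (9.79, 48.2 and 5.97 in PyMT, 628, 438 and 601 in FVB, -4.69 ± 0.74, adjusted p = 0.00462). So did C3, the central complement component, at 1231, 1837 and 1277 in PyMT and 6904, 5264 and 14493 in FVB (-2.56 ± 0.40, adjusted p = 0.00434).

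**Figure D2:**
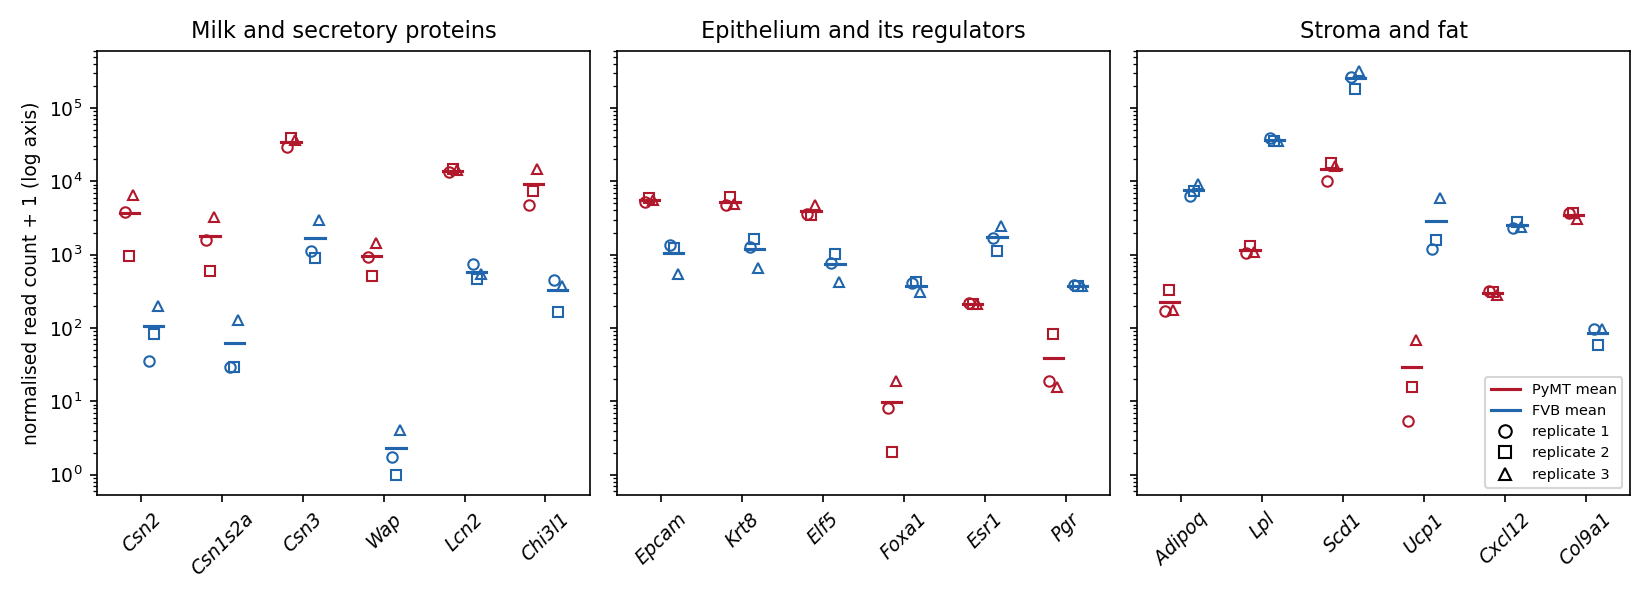
Normalised count plus 1, on a log axis, of 18 genes in each PyMT and FVB library of week 10, with circles, squares and triangles for replicates 1, 2 and 3 and bars at group means. Csn2 lay between 966.2 and 6450 in PyMT and between 34.5 and 199 in FVB.

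Luminal keratins and junction proteins rose. Of 21 luminal markers, 12 rose and 1 fell, their log2 fold changes had a median of 1.62, and 9 of the 13 calls were kept (not Cldn3, Ehf, Rab25 and Gata3). Krt18, a simple-epithelial keratin, was at 3431, 4400.4 and 3958 in PyMT and 1191, 1005 and 769.9 in FVB (2.04 ± 0.23, adjusted p = 0.00114), and its partner Krt8 rose by 2.17 ± 0.34 (adjusted p = 0.00463). Esrp1, the epithelial splicing regulator, was higher by 2.09 ± 0.24 (adjusted p = 0.00132), Spint1, a serine protease inhibitor of epithelia, by 2.19 ± 0.26 (adjusted p = 0.00135) and Epcam by 2.48 ± 0.35 (adjusted p = 0.00314). All 3 PyMT libraries lay above all 3 FVB libraries for these genes. Krt7, also luminal, had 0.19 ± 0.42 with no call, and Krt19 was at 1095, 1827 and 842 in PyMT and 989.7, 2232 and 651 in FVB. Kit, the receptor of luminal progenitors and of mast cells, was at 2237, 3543 and 3065 in PyMT and 1563, 925 and 983 in FVB (1.39 ± 0.28, adjusted p = 0.0128), a call lost without PyMT replicate 2.

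The hormone-sensing side of the luminal lineage moved the other way. Foxa1, the pioneer factor that opens chromatin for the estrogen receptor, was the luminal marker that fell, from 408, 422 and 305 in FVB to 7.12, 1.05 and 17.9 in PyMT (-5.34 ± 0.78, adjusted p = 0.00342). Of 11 steroid receptor and target genes tested, 6 fell and 1 rose, and 4 of the 7 calls were kept. Esr1, the estrogen receptor, was at 221, 209.6 and 212 in PyMT and 1674, 1129 and 2494 in FVB (-2.99 ± 0.30, adjusted p = 0.0007), and the ranges did not overlap. Tbx3, a T-box repressor of the hormone-responsive cells, fell by 3.19 ± 0.35 (adjusted p = 0.000985) and Cited1, an estrogen receptor co-activator, fell by 4.90 ± 0.87 (adjusted p = 0.00777). Pgr, the progesterone receptor, was at 17.8, 80.7 and 14.5 in PyMT and 387, 371 and 374 in FVB (-3.30 ± 0.66, adjusted p = 0.0131), a call that was not kept. The member that rose was Cited2, a p300-binding co-regulator (1.30 ± 0.26, adjusted p = 0.0122), a call lost without PyMT replicate 3. Gata3, a luminal transcription factor that works with FOXA1 and the estrogen receptor, was at 1799.9, 1706 and 2058 in PyMT and 775, 1121 and 493 in FVB (1.27 ± 0.30, adjusted p = 0.024), so that factor and Foxa1 were called in opposite directions.

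Myoepithelial cells contract the alveoli and line the ducts, and several of their smooth-muscle genes fell while Krt5 and Krt14 did not pass the test. Of 15 basal and myoepithelial markers, 7 fell and 0 rose, and 5 of the calls were kept. Myh11, the smooth muscle myosin, was at 252, 182 and 218 in PyMT and 2608, 3311 and 1992 in FVB (-3.55 ± 0.26, adjusted p = 0.000227). Mylk, the myosin light chain kinase, fell by 2.44 ± 0.26 (adjusted p = 0.000922), Acta2, the smooth muscle actin, fell by 2.76 ± 0.38 (adjusted p = 0.00274) and Oxtr, the oxytocin receptor, fell by 3.35 ± 0.47 (adjusted p = 0.00278). Against these, Krt5 was at 398, 609.9 and 232 in PyMT and 458, 652 and 111 in FVB, Krt14 at 558, 694 and 381 and 524, 602 and 141, and Trp63, the basal master regulator, at 388, 319 and 295 and 403, 341 and 182. For those 3 genes the log2 fold changes were 0.05 ± 0.60, 0.40 ± 0.50 and 0.16 ± 0.34, and the groups overlapped. The other keratins of the list, Krt15 and Krt17, were lower in PyMT. Krt15 was called down, a call that was not kept, with raw counts of 44, 19 and 16 in PyMT and 279, 563 and 39 in FVB. Krt17 was not called, with raw counts of 79, 112 and 33 in PyMT and 413, 437 and 62 in FVB. Vascular smooth muscle shares Myh11, Acta2 and Mylk.

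Of 21 signalling partners of middle T and PI3K-AKT genes, 2 fell and 0 rose, where 9.09% of all genes fell and 4.83% rose. These were Fyn, a Src-family kinase, at 137, 135 and 119 in PyMT and 482, 466 and 656 in FVB (-1.98 ± 0.25, adjusted p = 0.00198), and Akt2, the insulin-responsive AKT isoform, at 665, 709 and 669.6 in PyMT and 1909, 2232 and 2669.8 in FVB (-1.68 ± 0.18, adjusted p = 0.000925). Src had 1.10 ± 0.38 and Pik3ca -0.40 ± 0.19, neither of them past both limits. Among 12 ERBB receptors and ligands, Erbb3, the kinase-poor receptor that recruits PI3K, rose from 1142, 614 and 654 in FVB to 2052, 2158 and 2456 in PyMT (1.51 ± 0.28, adjusted p = 0.00867). Nrg4, a ligand that adipose tissue secretes, fell from 1238, 969 and 1254 in FVB to 41.8, 72.3 and 32.4 in PyMT (-4.52 ± 0.34, adjusted p = 0.000227). Both calls were kept, and without FVB replicate 3 there were 3 that rose and 2 that fell. Erbb2 was at 499, 496 and 554 in PyMT and 539, 602 and 581 in FVB (-0.10 ± 0.19), with no call.

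Of 15 genes that ERK induces as its own brakes and outputs, 4 rose and 0 fell, and the calls other than that of Phlda1 were kept. Etv1, an ETS factor, was at 744, 1400.1 and 763 in PyMT and 77.6, 147 and 72.0 in FVB (3.33 ± 0.39, adjusted p = 0.00136), and Etv5 rose by 1.88 ± 0.36 (adjusted p = 0.0108). Ier3, an immediate early gene, rose by 2.53 ± 0.37 (adjusted p = 0.00364) and Phlda1 by 2.07 ± 0.48 (adjusted p = 0.0235). None of the Dusp, Spry and Spred genes of the list, which brake the pathway, was called, nor was Egr1: Spry1 had -1.05 ± 0.46, Dusp6 0.97 ± 0.43 and Egr1 -0.27 ± 0.44. Dusp5, also without a call, had raw counts of 387, 271 and 651 in PyMT and 187, 14 and 12 in FVB. Over the 15 genes, 10 log2 fold changes were above 0 and 5 below.

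Mitosis genes had higher levels in PyMT, with wide scatter among the normal glands. Of 40 mitosis genes, 17 rose and 0 fell, the median log2 fold change was 2.60, and 39 had PyMT values wholly above FVB values. Ccnb1, the cyclin that starts mitosis, was at 319, 428 and 228 in PyMT and 7.19, 0 and 0 in FVB (6.78 ± 1.03, adjusted p = 0.00415). Ccna2, the cyclin of S phase and G2, was at 1110.4, 1019 and 749.8 in PyMT and 129, 248 and 124 in FVB (2.57 ± 0.33, adjusted p = 0.00211). Mki67, the Ki-67 proliferation antigen, was at 4035, 4321 and 3377 in PyMT and 327, 1119 and 199 in FVB (2.88 ± 0.60, adjusted p = 0.0152). FVB replicate 2 was the highest normal gland for all 3 of the genes Mki67, Ccna2 and Top2a, the DNA topoisomerase of dividing cells (2344, 2954 and 1771 in PyMT, 201, 813 and 114 in FVB, 2.69 ± 0.67, adjusted p = 0.0312). Smc4 and Ncapg, both condensin subunits, rose by 1.32 ± 0.19 and 3.36 ± 0.50 (adjusted p = 0.00336 and 0.00377). Trip13, an ATPase of the spindle checkpoint, had 141, 103 and 83.6 in PyMT and no count in the FVB libraries, 110-fold higher against the floor of 3 counts.

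The number of mitosis genes called depended on single libraries. Over the 40 members the median normalised count of PyMT libraries was 342.5, 386.2 and 267.4 and that of FVB libraries 34.9, 129.8 and 7.0, and 15 members were at 0 in FVB replicate 3. The count of called genes was 32 without FVB replicate 2, 26 without FVB replicate 3 and 8 without FVB replicate 1, and it was 5, 5 and 7 without PyMT replicate 1, 2 and 3. Calls for 5 of the 17, namely Ccna2, Ccnb1, Ncapg, Smc4 and Trip13, were kept. Without both replicates numbered 3 the count was 24.

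**Figure D3:**
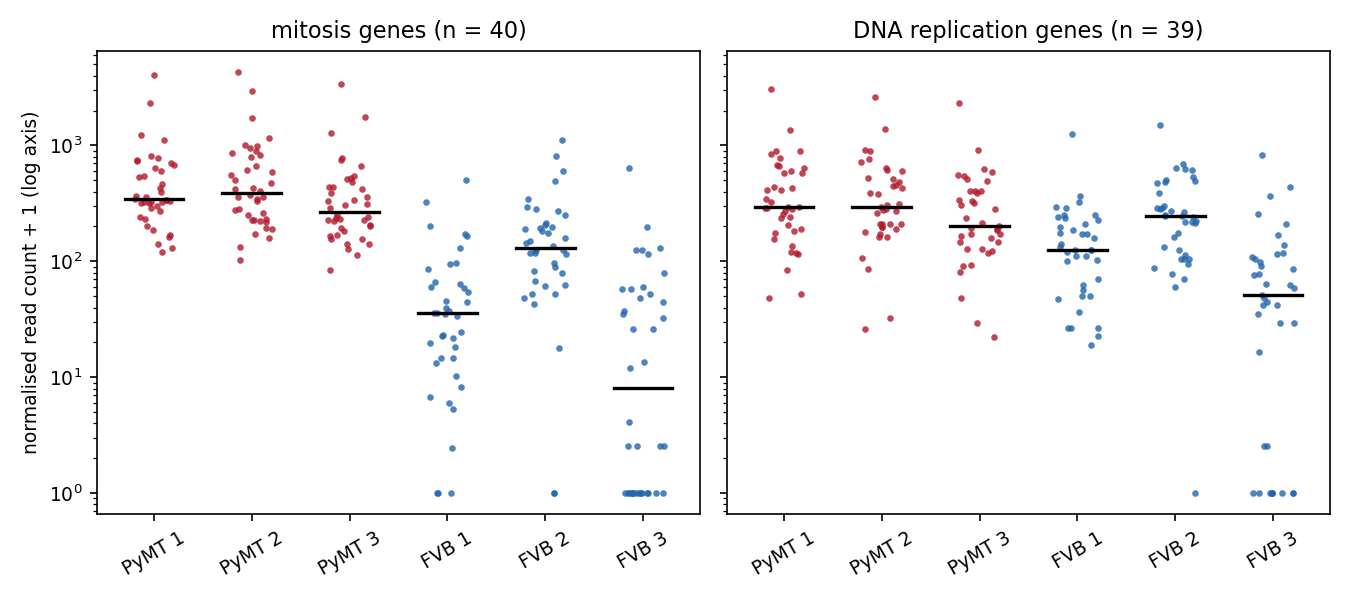
Normalised count, on a log axis, of 40 mitosis genes and 39 DNA replication genes in each library of week 10, 1 point a gene and a bar at the median. For mitosis genes the bars stood at 267.4 to 386.2 in PyMT and at 34.9, 129.8 and 7.0 in FVB.

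DNA replication genes differed less. Of 39, 2 rose (5.13%, near the 4.83% of all genes) and 0 fell, the log2 fold changes had a median of 1.07, and 17 had non-overlapping groups. Dnmt1, the maintenance DNA methyltransferase, was at 3041, 2636 and 2332 in PyMT and 1251, 1492 and 822 in FVB (1.22 ± 0.26, adjusted p = 0.0159), and Fen1, the flap endonuclease, rose by 1.79 ± 0.48 (adjusted p = 0.0413). Neither call was kept. Pcna, the polymerase clamp, was at 900.4, 909.6 and 622 in PyMT and 295, 626 and 257 in FVB (1.09 ± 0.36, adjusted p = 0.081). Mcm7, a helicase subunit, had overlapping groups at 582, 527 and 516 and 323, 697 and 438. FVB replicate 2 was again the highest normal gland for both of these genes. Without FVB replicate 2, 10 of the 39 were called, without FVB replicate 3, 7 were, and without FVB replicate 1 or PyMT replicate 1, 2 or 3, at most 1 was.

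Promoters of late cell cycle genes often pair a CHR element (TTTGAA), which the DREAM and MMB complexes read, with CCAAT boxes bound by NF-Y, while S-phase genes use E2F sites (TTTNNCGC). In the RefSeq promoters, searched on both strands, TTTGAA was found in 22 of 32 mitosis genes (68.75%), in 5 of 32 replication genes (15.62%) and in 17.89% of all promoters. CCAAT was found in 23 of 32 mitosis genes (71.88%) and 37.41% of all, and TTTNNCGC in 3 of 32 mitosis genes (9.375%), 16 of 32 replication genes (50%) and 5.169% of all. As above, list shares were taken per gene and those of all per promoter. Plk1, the polo-like kinase of mitotic entry, and Ccnb1 are shown as called members with and without TTTGAA in this window. Capitals mark TTTGAA or CCAAT on either strand, at chr7:122159185-122159484 (plus strand) and chr13:100786437-100786736 (minus strand).
Plk1: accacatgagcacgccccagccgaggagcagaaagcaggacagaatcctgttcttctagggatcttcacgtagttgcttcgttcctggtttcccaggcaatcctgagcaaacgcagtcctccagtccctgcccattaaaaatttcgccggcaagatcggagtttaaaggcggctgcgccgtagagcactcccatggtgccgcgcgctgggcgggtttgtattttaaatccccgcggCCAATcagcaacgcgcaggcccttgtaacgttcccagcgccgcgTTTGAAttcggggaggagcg
Ccnb1: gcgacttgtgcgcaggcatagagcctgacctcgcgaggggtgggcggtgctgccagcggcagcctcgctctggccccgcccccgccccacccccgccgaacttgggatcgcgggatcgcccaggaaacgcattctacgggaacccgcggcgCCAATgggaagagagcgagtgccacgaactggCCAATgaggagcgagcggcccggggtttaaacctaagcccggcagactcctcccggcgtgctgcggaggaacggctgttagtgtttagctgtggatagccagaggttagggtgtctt
Plk1 was at 324, 371 and 249 in PyMT and 23.7, 47.1 and 0 in FVB (3.74 ± 0.98, adjusted p = 0.037), and its groups did not overlap. The window of Ccnb1 has a pair of CCAAT matches and no TTTGAA, which says only that those letters are not in these 300 bases.

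A list of 18 genes was compiled from the text of the study, which names them as cell cycle genes, E2F targets, hub genes or examples of its pathways. The study picked them on these samples, so they are not independent evidence of a direction. Of these, 6 rose and 2 fell at week 10, and 3 of the 8 calls (Cyp2e1, Pparg and Trip13) were kept. The number that rose was 10 without FVB replicate 2, 11 without FVB replicate 3, 2 without PyMT replicate 3 and 1 without PyMT replicate 1, PyMT replicate 2 or FVB replicate 1. Prdx4, an endoplasmic reticulum peroxiredoxin, was at 469, 503 and 548 in PyMT and 148, 248 and 97.0 in FVB (1.67 ± 0.36, adjusted p = 0.0177). Spag5, a spindle protein, rose by 3.70 ± 0.97 (adjusted p = 0.0383) and Diap3 (Diaph3), an actin-nucleating formin, by 2.36 ± 0.65 (adjusted p = 0.0457), while Dnmt1, Plk1 and Trip13 are described above. Cyp2e1, a cytochrome P450 that fat and liver express, fell (-5.11 ± 0.78, adjusted p = 0.00412), as did Pparg. Members without a call had log2 fold changes above 0 except Erbb2: Cdk1 had 3.76 ± 1.09, Rrm2 2.66 ± 1.11, Ccnb2 3.68 ± 1.21, Aurkb 3.30 ± 1.00, Cit 1.62 ± 0.66, E2f2 1.05 ± 0.63, Hells 0.80 ± 0.41, Hmgb3 0.80 ± 0.39 and Erbb4 2.38 ± 1.06. Their FVB spread was large, as with Cdk1 at 22.3, 116 and 0 in FVB and 601, 866 and 391 in PyMT.

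Of 20 targets of p53, the tumor suppressor that halts damaged cells, 2 fell (10%) and 0 rose. Over all genes tested 9.09% fell and 4.83% rose, so the share that fell was near that of all genes. Phlda3, an inhibitor of AKT at the membrane, was at 77.4, 72.3 and 58.0 in PyMT and 1059, 491 and 523 in FVB (-3.27 ± 0.38, adjusted p = 0.00132). Plk2 fell by 1.46 ± 0.22 (adjusted p = 0.00363). Mdm2, the p53 ubiquitin ligase, was at 672, 449 and 615 in PyMT and 588, 492 and 701 in FVB (0.02 ± 0.24), and Cdkn1a, the p21 inhibitor, at 25.8, 0 and 53.7 and 38.1, 50.1 and 111. The ranges of both overlapped.

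Chaperones of the endoplasmic reticulum, where secreted proteins fold, were higher by a modest amount. Of 30 genes, 10 rose and 1 fell, 22 had PyMT wholly above FVB, and the median log2 fold change was 0.88, below the limit of 1 that a DEG had to pass. Xbp1, the transcription factor that enlarges the secretory apparatus, was at 8925, 10452 and 8769 in PyMT and 1749, 1587 and 1659 in FVB (2.54 ± 0.19, adjusted p = 0.000227). Hspa5, the chaperone BiP, was at 6409.5, 7556 and 7097 in PyMT and 2553, 2174 and 2236 in FVB (1.65 ± 0.19, adjusted p = 0.0012). P4hb, a protein disulfide isomerase, rose by 1.30 ± 0.20 (adjusted p = 0.00444). Derl3, a retrotranslocation factor of secretory cells, had 125, 173 and 172 in PyMT and no count in the FVB libraries, 158-fold higher against the floor of 3 counts. Its paralogue Derl1 was called the other way, at 572, 541 and 609 in PyMT and 1609.9, 1253 and 1566 in FVB (-1.31 ± 0.18, adjusted p = 0.00251). Of the stress factors, Ddit3 (CHOP) had -0.20 ± 0.48 and Atf4 0.26 ± 0.20, neither called. Calls for 5 of the 11, Hspa5, P4hb, Xbp1, Derl1 and Derl3, were kept, and the number that rose was 4 without PyMT replicate 2 and 6 without PyMT replicate 3.

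The endoplasmic reticulum stress response element (ERSE, the letters CCAAT followed at a fixed spacing by CCACG), read by NF-Y with ATF6 or XBP1, was found in the promoters of 8 of 24 of these genes (33.33%) and in 0.1187% of all promoters, on either strand. It contains the CCAAT letters, which alone were in 20 of the 24 (83.33%). Here too the list shares were taken per gene and that of all per promoter. Hspa5, the field's reference gene for the element, and Derl3, the one without a count in FVB, are shown with the element in capitals, at chr2:34771840-34772139 and chr10:75893148-75893447, both on the plus strand of GRCm38.p6.
Hspa5: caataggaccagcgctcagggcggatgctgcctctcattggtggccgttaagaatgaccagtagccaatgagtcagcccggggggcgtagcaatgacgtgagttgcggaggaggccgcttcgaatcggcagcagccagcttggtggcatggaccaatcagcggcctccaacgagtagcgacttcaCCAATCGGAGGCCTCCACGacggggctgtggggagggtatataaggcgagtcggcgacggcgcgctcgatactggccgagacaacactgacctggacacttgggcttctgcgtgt
Derl3: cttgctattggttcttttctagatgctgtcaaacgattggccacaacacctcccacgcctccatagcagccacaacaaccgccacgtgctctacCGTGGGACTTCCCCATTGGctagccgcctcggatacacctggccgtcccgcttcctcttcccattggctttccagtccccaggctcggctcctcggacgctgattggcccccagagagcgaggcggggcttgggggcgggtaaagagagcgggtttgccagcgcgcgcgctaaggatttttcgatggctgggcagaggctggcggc
In Derl3 the match is on the opposite strand and so reads as its reverse complement.

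Among 16 amino acid synthesis and transport genes, 2 rose and 1 fell. Psat1, of serine synthesis, was at 1454, 1208 and 1351 in PyMT and 569, 655 and 243 in FVB (1.50 ± 0.35, adjusted p = 0.0243), and Slc7a5, the leucine transporter LAT1, rose by 2.42 ± 0.64 (adjusted p = 0.0385). Neither was kept: 0 of the 16 rose without PyMT replicate 1, 2 or 3, 1 without FVB replicate 1 and 4 without FVB replicate 2. Slc1a5, the glutamine transporter ASCT2, fell by far more than its spread, from 7842, 8589 and 7325 in FVB to 334, 397 and 377 in PyMT (-4.37 ± 0.21, adjusted p = 6.98e-05), and that call was kept. The other glutamine carriers Slc38a2 and Slc38a3 had 0.60 ± 0.22 and 2.78 ± 0.90, with no call.

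The genes of white fat fell together. All 20 adipocyte markers fell, with a median log2 fold change of -4.71, no overlap between groups, and 19 of the 20 calls kept (the call for Slc2a4, the insulin-sensitive glucose transporter, was lost without PyMT replicate 1). Lpl, the lipase that frees fatty acids from plasma lipid, was at 1051, 1303 and 1091 in PyMT and 39469, 35096 and 35438 in FVB (-4.95 ± 0.22, adjusted p = 6.03e-05). Adipoq, the hormone adiponectin, was at 167, 325 and 177 in PyMT and 6202, 7257 and 9233 in FVB (-5.04 ± 0.34, adjusted p = 0.000161). PyMT replicate 2 was the highest of the tumors for Adipoq, and Pparg, the master regulator of adipocytes, had the same order (38.3, 192 and 71.6 in PyMT, 1776, 1686 and 1725 in FVB, -4.07 ± 0.54, adjusted p = 0.00227). Acvr1c, an activin receptor of fat cells, fell by 5.44 ± 0.22 (adjusted p = 5.12e-05), Adrb3, the fat-cell adrenergic receptor, fell by 4.81 ± 0.27 (adjusted p = 9.77e-05), Retn, resistin, fell by 5.81 ± 0.35 (adjusted p = 0.000109) and Lipe, hormone-sensitive lipase, fell by 4.31 ± 0.26 (adjusted p = 0.000109). Adipocyte markers took 0.0780% to 0.180% of counts in PyMT and 1.68% to 2.51% in FVB.

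Enzymes of lipid synthesis mostly fell, and their regulator Srebf1 rose. Of 17 fatty acid and triglyceride synthesis genes, 10 fell and 1 rose. Dgat2, the last step of triglyceride synthesis, was at 237, 376 and 368 in PyMT and 13293, 7628 and 13321 in FVB (-5.08 ± 0.35, adjusted p = 0.000161), and Scd1, the fatty acid desaturase of adipose tissue, at 10199.8, 17805 and 16089.6 and 264851, 179814 and 319265 (-4.07 ± 0.31, adjusted p = 0.000241). Mlxipl, the carbohydrate-responsive factor ChREBP, fell by 4.12 ± 0.32 (adjusted p = 0.000265) and Agpat2 fell by 3.75 ± 0.39 (adjusted p = 0.000878). Srebf1, which drives the same enzymes, was at 13578, 12127 and 17283 in PyMT and 4820.4, 3054 and 3739 in FVB (1.94 ± 0.26, adjusted p = 0.00245). The FVB glands themselves differed: Fasn, the fatty acid synthase, was at 117994, 16241 and 220653 in FVB and 7729.9, 9210.5 and 10237 in PyMT (-3.65 ± 0.79, adjusted p = 0.0177), so FVB replicate 2 was the lowest normal gland. The calls for Fasn and Acaca, which makes its malonyl substrate, were not kept. Acly, whose product feeds both, was at 15101, 2365 and 19604 in FVB and 5991, 4914 and 5243 in PyMT, with overlapping groups.

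Brown fat genes fell as well. Of 11 tested, 7 fell and 0 rose, the log2 fold changes had a median of -4.07, and calls other than those of Elovl3 and Prdm16 were kept. Ucp1, the uncoupling protein that makes heat, was at 4.45, 14.7 and 67.4 in PyMT and 1184, 1607 and 5837 in FVB (-6.55 ± 1.08, adjusted p = 0.0057). Cidea fell by 4.82 ± 0.77 (adjusted p = 0.00491), Cox8b fell by 4.98 ± 0.85 (adjusted p = 0.00656) and Otop1 fell by 2.77 ± 0.48 (adjusted p = 0.00704). Slc27a2, a fatty acid transporter, and Elovl3, a fatty acid elongase, had no count in any PyMT library. In FVB they were at 39.5, 51.1 and 297 and at 25.9, 24.0 and 246. Against the floor of 3 counts PyMT was 106-fold and 77.6-fold lower. FVB replicate 3, the library with the muscle markers, was the highest for all 4 of Ucp1, Cidea, Slc27a2 and Elovl3, and replicates 1 and 2 were also above every PyMT library for each of them.

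Carbonic anhydrases, which interconvert carbon dioxide and bicarbonate, moved in both directions. Of 11 tested, 3 rose and 1 fell, and all 4 calls were kept (a further one fell without PyMT replicate 2 or FVB replicate 3). Beside Car6, Car12, a membrane-bound form, was at 1976, 1741 and 2634 in PyMT and 25.2, 26.1 and 62.6 in FVB (5.91 ± 0.42, adjusted p = 0.000195), and Car2, a cytosolic form, rose by 2.20 ± 0.29 (adjusted p = 0.00227). Car3, the form abundant in fat and muscle, was at 1265, 3009.7 and 2699.7 in PyMT and 66430.4, 68323 and 103788 in FVB (-5.05 ± 0.40, adjusted p = 0.00027). Of 8 caveolae genes, whose membrane pits are dense in fat and endothelium, 6 fell and 0 rose, and all 6 calls were kept. Cav1, the coat protein caveolin, was at 464, 692 and 562 in PyMT and 12209.5, 14986 and 12393 in FVB (-4.48 ± 0.25, adjusted p = 9.48e-05). Ptrf (cavin 1) fell by 3.59 ± 0.23 (adjusted p = 0.000142), Sdpr (cavin 2) fell by 3.43 ± 0.22 (adjusted p = 0.000147) and Ehd2 fell by 3.95 ± 0.29 (adjusted p = 0.000204).

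The remaining genes with the greatest decreases included hormone receptors and secreted factors. Irs3, an insulin receptor substrate, was at 0, 1.05 and 5.97 in PyMT and 134, 332 and 369 in FVB (-6.72 ± 1.02, adjusted p = 0.00405). Mc2r, the corticotropin receptor, fell by 6.64 ± 1.18 (adjusted p = 0.00771). Fgf10, the stromal growth factor of duct budding, was at 7.12, 1.05 and 18.8 in PyMT and 1032, 809 and 418 in FVB (-6.28 ± 0.78, adjusted p = 0.00175). Each had every PyMT library below every FVB library, which the choice of these genes required. Ces1f, a carboxylesterase, fell by 6.31 ± 0.81 (adjusted p = 0.00202), Rbp4, the retinol carrier, fell by 6.15 ± 0.99 (adjusted p = 0.00504), Clstn3 fell by 6.19 ± 0.98 (adjusted p = 0.00467), Dmrt2 fell by 5.77 ± 0.97 (adjusted p = 0.00607) and Npr3, the natriuretic peptide clearance receptor, fell by 5.71 ± 0.43 (adjusted p = 0.000227).

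**Figure D4:**
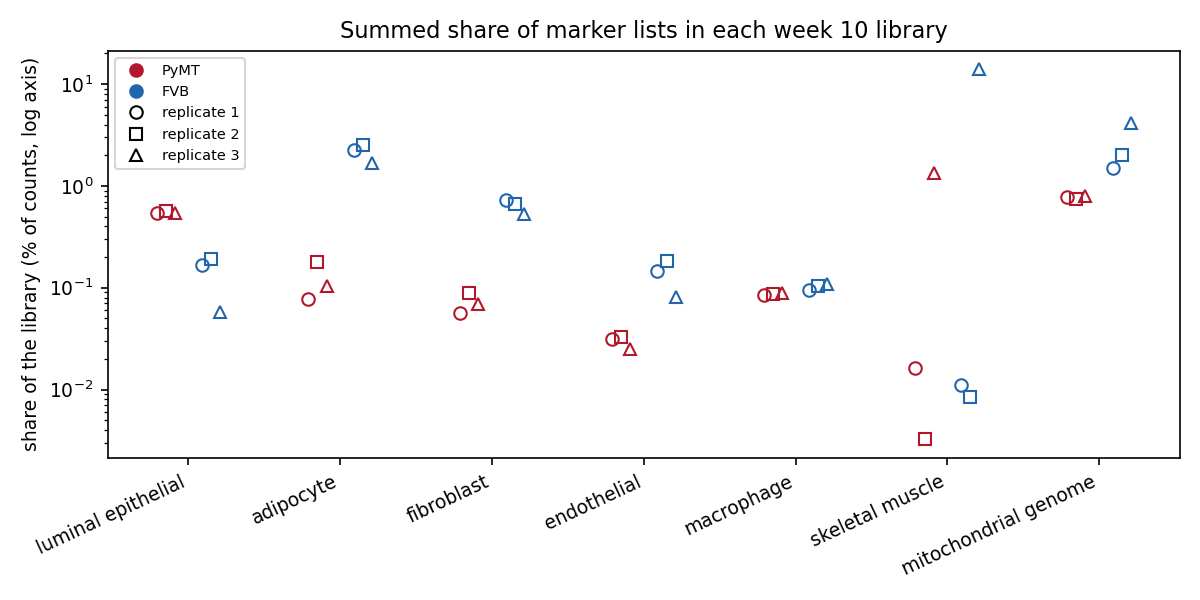
Share of each library's counts, in percent on a log axis, taken by 7 marker lists in PyMT and FVB at week 10, with 1 point a library. Luminal markers took 0.535% to 0.565% in PyMT, above the 0.0581% to 0.193% of FVB, and adipocyte markers ran the other way.

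Matrix genes fell broadly, with a small set of collagens that rose. Of 22 collagens, 11 fell and 4 rose, and 13 of these 15 calls were kept (not Col1a1 and Col4a5). Col5a3, a fibrillar collagen of fat, was at 354, 348 and 224 in PyMT and 1793, 2242 and 1836 in FVB (-2.61 ± 0.23, adjusted p = 0.000401). Col18a1, the source of endostatin, fell by 2.27 ± 0.22 (adjusted p = 0.000638), Col15a1, of basement membranes, fell by 2.18 ± 0.24 (adjusted p = 0.00099) and Col3a1, of loose connective tissue, fell by 1.55 ± 0.17 (adjusted p = 0.00102). Col1a1, the main fibrillar chain, was at 6847, 5366 and 5769 in PyMT and 11365, 13856 and 12565 in FVB (-1.02 ± 0.20, adjusted p = 0.012). Those that rose were Col9a1, a collagen known from cartilage, at 3734, 3721 and 3015 in PyMT and 97.0, 57.1 and 95.5 in FVB (5.44 ± 0.29, adjusted p = 9.33e-05), and Col11a1, at 1155, 2763 and 1478 and 201, 148 and 100.2 (3.61 ± 0.40, adjusted p = 0.00109). Col12a1 rose by 2.20 ± 0.30 (adjusted p = 0.00262) and Col4a5 by 2.06 ± 0.51 (adjusted p = 0.0297).

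Of 32 other matrix genes, 14 fell and 0 rose, and 12 of the calls were kept. Without FVB replicate 3, 3 rose. Nid1, the nidogen that links laminin to collagen IV, was at 922, 1100.3 and 1048 in PyMT and 8142, 9454 and 7413 in FVB (-2.98 ± 0.21, adjusted p = 0.000164). Lama2, a laminin chain, fell by 2.20 ± 0.17 (adjusted p = 0.000241), and of the small proteoglycans Dcn fell by 3.36 ± 0.28 (adjusted p = 0.000306) and Lum fell by 2.25 ± 0.18 (adjusted p = 0.000307). Tnc, the tenascin of tumor stroma, had 2.17 ± 0.72 and Postn, periostin, -0.73 ± 0.22, neither called. Of 19 matrix proteases and inhibitors, 11 fell and 0 rose, with 8 of the calls kept. Adamts5, an aggrecanase, was at 285, 227 and 196 in PyMT and 3596, 3292 and 2604 in FVB (-3.69 ± 0.24, adjusted p = 0.00015). Mmp2 fell by 2.13 ± 0.18 (adjusted p = 0.000381), its inhibitor Timp3 fell by 2.37 ± 0.21 (adjusted p = 0.000427) and Adamts1 fell by 2.30 ± 0.32 (adjusted p = 0.00278).

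Markers of the cells that make this matrix fell too. Of 12 fibroblast markers, 10 fell and 0 rose, at a median of -2.17, and 8 of the calls were kept. Gsn, the actin-severing gelsolin, was at 1500.1, 2816 and 2508 in PyMT and 49025, 44013 and 47464 in FVB (-4.32 ± 0.29, adjusted p = 0.000152). Dpt, dermatopontin, fell by 3.39 ± 0.30 (adjusted p = 0.000403), Pdgfra, the platelet-derived growth factor receptor of fibroblasts, fell by 2.11 ± 0.21 (adjusted p = 0.000681) and Serpinf1, an antiangiogenic serpin, fell by 1.83 ± 0.19 (adjusted p = 0.000868). Of 10 genes of epithelial-mesenchymal transition, 5 fell and 0 rose. Zeb2, a repressor of E-cadherin, was at 478, 531 and 479 in PyMT and 5403, 4436 and 4718 in FVB (-3.24 ± 0.19, adjusted p = 0.000109), Vim, vimentin, fell by 2.14 ± 0.29 (adjusted p = 0.00251), Prrx1 fell by 2.95 ± 0.30 (adjusted p = 0.00077) and Cdh2, N-cadherin, fell by 3.14 ± 0.61 (adjusted p = 0.0114). Cdh1, the E-cadherin of epithelia, was at 4084, 3499 and 4291 in PyMT and 1691, 1559 and 1142 in FVB (1.49 ± 0.23, adjusted p = 0.00408). Fibroblasts express Zeb2, Vim and Prrx1 too, and fibroblast markers took 0.0569% to 0.0884% of counts in PyMT against 0.524% to 0.731% in FVB.

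Of 20 endothelial markers, 16 fell and 0 rose, at a median of -2.58, and 12 of the calls were kept. Pecam1, the platelet endothelial adhesion molecule, was at 372, 449.6 and 305 in PyMT and 1532, 2076 and 1299 in FVB (-2.08 ± 0.24, adjusted p = 0.00124). Flt1, a receptor for VEGF, fell by 2.69 ± 0.26 (adjusted p = 0.000661), Robo4 fell by 3.01 ± 0.31 (adjusted p = 0.000783), Esam fell by 2.67 ± 0.27 (adjusted p = 0.000794) and Eng, a TGF-beta co-receptor of vessels, fell by 2.29 ± 0.24 (adjusted p = 0.000872). Of 19 angiogenic and hypoxia genes, 5 fell and 1 rose, and the one that rose was Car12 (3 rose without FVB replicate 3). Calls other than that of Vegfb were kept. Epas1 (HIF-2 alpha), strong in endothelium and fat, was at 292, 369 and 345 in PyMT and 2519.8, 2641 and 2865 in FVB (-2.95 ± 0.18, adjusted p = 0.000109). Vegfa itself was at 345, 219 and 331 in PyMT and 1390.0, 1637 and 2263 in FVB (-2.50 ± 0.27, adjusted p = 0.000974), so the early carcinomas had the lower transcript level. Bnip3, of mitophagy, fell by 3.56 ± 0.43 (adjusted p = 0.00159) and Hk2, a hexokinase, fell by 2.79 ± 0.44 (adjusted p = 0.00463). Hif1a had 0.25 ± 0.20 and Slc2a1, the GLUT1 glucose transporter, 1.58 ± 0.52, neither called.

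Most macrophage markers had no call. Of 19 macrophage markers, 5 fell and 0 rose, at a median of -0.06 (0.27 when scaled by library size alone), and 3 fell without PyMT replicate 1, PyMT replicate 3 or FVB replicate 3. Cd163, a scavenger receptor, was at 57.8, 66.0 and 126 in PyMT and 402, 612 and 668 in FVB (-2.69 ± 0.39, adjusted p = 0.00347), and Retnla fell by 3.76 ± 0.56 (adjusted p = 0.00383), Clec10a fell by 2.52 ± 0.46 (adjusted p = 0.00843) and Mrc1, the mannose receptor, fell by 1.20 ± 0.25 (adjusted p = 0.0149). The other gene that fell was Csf1r, the receptor of macrophage colony-stimulating factor (-1.02 ± 0.24, adjusted p = 0.0261). The calls for Mrc1 and Csf1r were not kept. Complement genes C1qa, C1qb and C1qc had -0.20 ± 0.22, 0.08 ± 0.35 and -0.06 ± 0.26, and Lyz2 was at 1569, 1642 and 1824 in PyMT and 1161, 1345 and 2305 in FVB. Macrophage markers took 0.0841% to 0.0880% of counts in PyMT and 0.0940% to 0.109% in FVB.

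Lymphocyte markers were too low to compare. Of 18 T cell and NK markers, 5 passed the filter and 0 were called, and of 14 B cell and plasma cell markers, 2 passed and 0 were called. Ncr1, an NK receptor, was at 0, 0 and 3.41 in PyMT and 35.2, 15.0 and 0 in FVB, and Cd22, of B cells, at 22.2, 33.5 and 11.1 and 0, 12.0 and 0. Lck had -0.98 ± 1.02 and Igj (Jchain) -1.77 ± 2.00. Mast cell proteases were detectable mainly in FVB: Cpa3 was at 5.34, 0 and 23.0 in PyMT and 157, 159 and 207 in FVB (-4.10 ± 1.16, adjusted p = 0.0487), and Mcpt4 fell by 3.25 ± 0.91 (adjusted p = 0.0474). These 2 calls and that for Kit were the ones made among 6 neutrophil and mast cell genes, and none was kept. Without any one of PyMT replicate 1 or FVB replicate 1, 2 or 3, 0 of these genes fell.

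MHC class I genes fell, at levels where all libraries were well above 0. Of 15 antigen presentation genes, 4 fell and 0 rose, and all 4 calls were kept. B2m, the light chain of class I, was at 1040.1, 808 and 1001 in PyMT and 6241, 6268 and 6973 in FVB (-2.72 ± 0.21, adjusted p = 0.000234). H2-D1 was at 3424, 3123 and 3166 in PyMT and 10285, 9766 and 9538 in FVB (-1.56 ± 0.18, adjusted p = 0.00133), and H2-K1 fell by 1.34 ± 0.22 (adjusted p = 0.00619). H2-D1 and H2-K1 are close paralogues whose reads can be shared. Nlrc5, the transactivator of class I genes, was at 69.4, 72.3 and 79.3 in PyMT and 782, 484 and 482 in FVB (-2.93 ± 0.31, adjusted p = 0.000878). Class II genes H2-Aa and Cd74 had -0.82 ± 0.21 and -0.64 ± 0.18, short of the fold limit, and the peptide transporter Tap1 had -0.56 ± 0.25. Of 20 interferon-stimulated genes, 3 fell and 0 rose, and among them Gbp2 fell by 2.04 ± 0.29 (adjusted p = 0.00305) and Oasl2 fell by 1.58 ± 0.40 (adjusted p = 0.0332). Only the call for Gbp2 was kept, since 1 gene fell without FVB replicate 1 or PyMT replicate 3. Of 14 chemokines tested, 3 fell and 0 rose. Cxcl12, the stromal ligand of CXCR4, was at 317, 307 and 281 in PyMT and 2301, 2827 and 2399 in FVB (adjusted p = 0.000109), Cxcl14 fell by 1.88 ± 0.30 (adjusted p = 0.00463) and Ccl11, eotaxin, fell by 2.79 ± 0.59 (adjusted p = 0.016), a call lost without PyMT replicate 3.

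In the growth factor pathways more genes fell than rose, as they did over all genes tested (9.09% fell and 4.83% rose). Of 27 Wnt pathway genes, 4 fell and 0 rose, and calls other than that of Wnt4 were kept. Fzd4, a Wnt and norrin receptor, was at 124, 119 and 158 in PyMT and 2003, 2584 and 2527 in FVB (-4.09 ± 0.22, adjusted p = 9.33e-05). Axin2, a feedback inhibitor that canonical Wnt signalling induces, was at 20.5, 13.6 and 25.6 in PyMT and 481, 334 and 288 in FVB (-4.14 ± 0.44, adjusted p = 0.000905). Wnt4, the progesterone-induced ligand, was at 9.79, 0 and 16.2 in PyMT and 299, 274 and 133 in FVB (-4.66 ± 1.04, adjusted p = 0.0198), and Sfrp2 fell by 1.62 ± 0.32 (adjusted p = 0.012). The co-receptors Lrp5 and Lrp6 had 0.54 ± 0.21 and 0.32 ± 0.19, neither called. Of 12 genes of the IGF axis, 6 fell and 1 rose, and calls other than that of Igfbp6 were kept. Igf1, the stromal ligand, was at 401, 262 and 302 in PyMT and 2538, 2912 and 3341 in FVB (-3.13 ± 0.24, adjusted p = 0.000227), and its receptor Igf1r fell by 1.64 ± 0.25 (adjusted p = 0.00434). Igfbp7 fell by 1.67 ± 0.17 (adjusted p = 0.000842), Igfbp4 fell by 2.11 ± 0.22 (adjusted p = 0.000915) and Igfbp3 fell by 1.87 ± 0.31 (adjusted p = 0.00571). Igfbp5, the binding protein of the involuting gland, rose, at 72801, 57301 and 79267 in PyMT and 13845, 14332 and 26429.9 in FVB (2.00 ± 0.30, adjusted p = 0.00383).

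Of 27 BMP, activin and TGF-beta genes, 7 fell and 3 rose, and 6 of the 10 calls were kept (4 fell without FVB replicate 1 or PyMT replicate 3). Ltbp4, which anchors latent TGF-beta in the matrix, was at 286, 301 and 269 in PyMT and 1509, 1723 and 2289 in FVB (-2.64 ± 0.20, adjusted p = 0.000241). Tgfbr3 (betaglycan) fell by 1.59 ± 0.18 (adjusted p = 0.00107), Bmp1 fell by 1.31 ± 0.20 (adjusted p = 0.00436) and Chrdl1, a BMP antagonist, fell by 2.36 ± 0.47 (adjusted p = 0.0122), a call lost without PyMT replicate 1 or 2. Ligands rose instead at Tgfb3, with 3841, 2683 and 3304 in PyMT and 1031, 931 and 992 in FVB (1.79 ± 0.21, adjusted p = 0.00126), and at Tgfb2 (1.44 ± 0.21, adjusted p = 0.00366). Id2, an inhibitor of differentiation needed in alveolar cells, was at 1781, 1548 and 2007 in PyMT and 267, 359.7 and 119 in FVB (2.88 ± 0.39, adjusted p = 0.00245), whereas its relative Id1 fell by 2.61 ± 0.56 (adjusted p = 0.0172), a call that was not kept. So Id1 and Id2 were called in opposite directions.

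Among 9 Schwann cell and nerve markers, 2 rose and 1 fell. Cdh19 was at 429.7, 633 and 453 in PyMT and 30.9, 30.1 and 36.0 in FVB (4.01 ± 0.31, adjusted p = 0.000237). Sox10, which mammary epithelial progenitors also express, was at 1827, 1219 and 2103 in PyMT and 566, 670.3 and 120.5 in FVB (1.97 ± 0.56, adjusted p = 0.0499), a call lost in every fit without 1 library except that without FVB replicate 3. Pmp22 fell by 2.51 ± 0.32 (adjusted p = 0.00197). Globin transcripts from blood were lower in PyMT, with 3 of 4 red cell genes called: Hba-a1 was at 286, 303 and 415 in PyMT and 1170.1, 1989.9 and 5504 in FVB (-3.04 ± 0.54, adjusted p = 0.00803), and Hbb-b1 and Hbb-b2, near-identical copies whose reads can be shared, were lower (-2.39 ± 0.50 and -2.45 ± 0.63, adjusted p = 0.0152 and 0.0355). Without PyMT replicate 2 or 3, 1 of the 3 calls was left. Only 1 skin keratinocyte gene, Sbsn, passed the filter, at 124, 235 and 148 in PyMT and 73.3, 36.1 and 152 in FVB, with no call.

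Skeletal muscle markers gave no call among 20 genes and could not be read at this spread. Pvalb was at 8.90, 0 and 532 in PyMT and 10.8, 0 and 18862 in FVB, and Casq1 at 3.56, 14.7 and 395 and 2.87, 100.2 and 10632, so the counts lay mostly in the replicates numbered 3. The median log2 fold change of the list was -4.12, and it was 6.33 without FVB replicate 3 and 0.31 without both replicates numbered 3. Of 9 transcripts of the mitochondrial genome 6 fell, and 6 did without FVB replicate 3, but 0 of those calls were kept (0 fell without PyMT replicate 1 or 2 and 1 without PyMT replicate 3). For mt-Cytb, a subunit of complex III, the values were 4619, 4228 and 5119 in PyMT and 12776, 16650 and 47129 in FVB (-2.39 ± 0.48, adjusted p = 0.0125), and mt-Nd4, of complex I, fell by 2.48 ± 0.50 (adjusted p = 0.0131). FVB replicates 1 and 2 were also above every PyMT library for both.

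Week 10 was then set against the other weeks, to ask whether PyMT departed from FVB in its own way at early carcinoma. For this all 24 samples were fitted together and the difference between the week 10 fold change and that of other weeks was tested directly. Against week 8, 1 gene of 14918 (0.0067%) had an adjusted p below 0.05 and 533 had an unadjusted p below 0.05. Against week 12, 0 genes did, with 348 at an unadjusted p below 0.05. Against the mean of weeks 6, 8 and 12, 1 gene did, with 601 at an unadjusted p below 0.05. DESeq2's Wald test of the same contrasts called 7, 3 and 20 genes.

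The gene called in edgeR against week 8 and against the mean was Trip13 (mm9 chr13:74049910-74075215). Its fold change at week 10 exceeded that at week 8 by 8.43 ± 1.18 (adjusted p = 0.0126) and the mean of the other weeks by 8.21 ± 1.06 (adjusted p = 0.00405). In normalised counts PyMT was at 141, 103 and 83.6 at week 10, inside the range of 57.6 to 173 at the other weeks. The FVB glands were at 0 in all 3 libraries of week 10 and between 10.8 and 89.5 at the other weeks, so the FVB levels lay below the range of the other weeks. In those FVB libraries low counts clustered near 12, 13 and 19 rather than near 1, and the part of this in the result was not tested. Against week 12 the value was 7.68 ± 1.19 (adjusted p = 0.0538). Acox2, the gene next in order, likewise had FVB counts of 0 at week 10 only, with 6.95 to 27.3 at other weeks, and a difference from the mean of 7.64 ± 1.25 (adjusted p = 0.0544). Its PyMT level ran from 29.8 to 346 at other weeks and included the week 10 values of 333, 307 and 196. Fam64a, Pkhd1l1, Irs3, Derl3 and Zeb2 had the next smallest p-values in these tests and none was called.

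Of the 2076 DEGs of week 10, 299 were DEGs at no other week (145 higher and 154 lower in PyMT). Most of these had the same direction elsewhere: 279 of the 299 had the same sign at all 3 other weeks, and 0 of the 299 passed the adjusted test of the week difference, with 86 at an unadjusted p below 0.05. Over all 2076 DEGs, 2048 (98.7%) had one sign at all 4 weeks, in a comparison where every week used its own 3 PyMT and 3 FVB mice. The DEGs were chosen for their fold change at week 10. No such share was taken over all genes tested, so how usual this agreement of signs is was not tested.

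Gene groups can be placed along the weeks by their medians, given as description. Mitosis genes had median log2 fold changes of 1.26, 1.91, 2.60 and 2.55 at weeks 6, 8, 10 and 12, with 2, 5, 17 and 31 of 40 called up. Their PyMT levels did not rise along these weeks. As a mean log2 of normalised count plus 1, PyMT libraries ran from 8.69 to 9.10, 8.52 to 8.99, 8.29 to 8.79 and 8.15 to 8.57. FVB libraries ran from 5.15 to 8.35, 3.62 to 7.69, 3.13 to 6.82 and 4.17 to 6.76. Milk protein genes had median log2 fold changes of 5.62, 4.80, 5.13 and 2.08. Adipocyte markers had -2.46, -4.00, -4.71 and -4.01 and luminal markers 1.13, 1.46, 1.62 and 1.41. Of the brown fat genes 7 of 11 were called down at week 10 and 0 at each other week, with medians of -1.25, -2.31, -4.07 and -1.75, but no brown fat gene passed the test of a week difference. For Ucp1 the difference of week 10 from the mean of the other weeks was -4.76 ± 2.32 (adjusted p = 1), and single FVB libraries ranged from 5.47 to 7650 at those weeks. Csn2 differed from week 12 by 4.50 ± 1.85 (adjusted p = 1), and 2 of the 3 FVB glands of week 12 stood at 1418 and 1413.

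**Figure D5:**
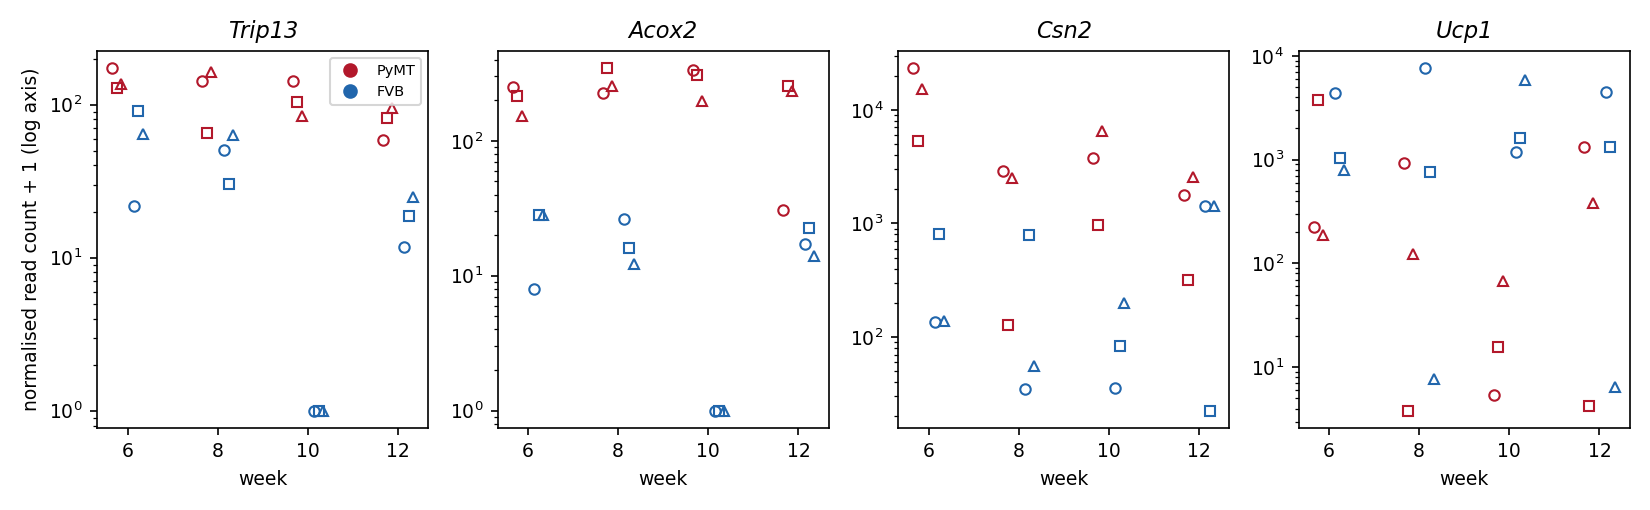
Normalised count, on a log axis, of Trip13, Acox2, Csn2 and Ucp1 in each PyMT and FVB library at weeks 6, 8, 10 and 12. The FVB points of Trip13 and Acox2 drop to 0 at week 10 while the PyMT points stay within their range at the other weeks.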

How the data were processed

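Total RNA from snap-frozen mammary tissue was depleted of ribosomal RNA and sequenced as directional libraries. Per the labels and the study's methods, the authors aligned reads with GSNAP to mouse genome mm9 and deposited raw HTSeq counts per gene (37991 genes, 24 samples). The strand setting of HTSeq was not given in the sources used here. Genes were kept where at least 12 of the 24 samples reached 1 CPM. The main comparison used edgeR 4.0.16 (R 4.3.3) on the 6 samples of week 10, with TMM scaling, the quasi-likelihood test, Benjamini-Hochberg adjustment over all genes tested, and limits of adjusted p below 0.05 and a log2 fold change beyond 1. SE was the log2 fold change divided by the root of the F statistic. Differences between weeks were contrasts in 1 fit of all 24 samples. Size factors for normalised counts came from DESeq2 1.42.0 over 24 samples, and limma 3.58.1 served as an alternative. Total counts per library set the precision, and intervals at 95% and the floor of 3 counts cover counting error only. Both take counts as independent, which the clustered low counts of some libraries may not be. The 3 replicates of a group were separate mice, and an exact permutation test of 3 against 3 cannot go below p = 0.1. All 21 alternatives are given in the closing section, and the test scripts were tested on simulated data.

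The gene lists and named genes were chosen with earlier results of these data known. Named were the 10 greatest increases and decreases among DEGs that averaged 100 normalised counts or more over the 6 samples and whose groups did not overlap, in each list up to 4 called members of smallest adjusted p in each direction with any called against the majority or at 0 in a whole group, the genes the study names, up to 5 genes a week difference, and 2 members of smallest p in lists without a call. Other genes were added for context after their values were seen. Some genes that these rules name are not reported here. Gene symbols and mm9 positions are from GENCODE M1, and promoters are RefSeq GRCm38.p6.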

Additional observations from a re-analysis of the deposited data

Results flagged for a closer look

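The PyMT against FVB difference of Trip13 at week 10 departed from that of other weeks in tests of the difference itself, with all 24 samples in 1 edgeR fit. It exceeded the week 8 difference by 8.43 (SE 1.18, adjusted p = 0.0126) and the mean of weeks 6, 8 and 12 by 8.21 (SE 1.06, adjusted p = 0.00405), both on the log2 scale. Raw counts were 158, 98 and 98 in PyMT and 0 in the 3 FVB libraries at week 10, against 8 to 116 in the FVB libraries of other weeks. In the FVB libraries of week 10 low counts clustered near 12, 13 and 19 rather than near 1, and the part of this in the result was not tested. Adjusted p for the week 8 difference ranged from 0.00038 to 0.045 over 11 alternatives, and that for the mean of the other weeks from 0.000189 to 0.022.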

How the results depend on the processing

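No named gene with a call had the opposite sign under any alternative run. Some list medians took both signs over the alternatives: skeletal muscle markers ranged from -9.51 to 6.33, B cell and plasma cell markers from -0.50 to 3.35, skin keratinocyte markers from -1.09 to 1.71, ERBB receptors and ligands from -0.24 to 1.10, T cell and NK markers from -1.12 to 0.02, angiogenic and hypoxia genes from -0.31 to 0.24, macrophage markers from -0.21 to 0.27, p53 targets from -0.32 to 0.03 and middle T partners and PI3K-AKT genes from -0.36 to 0.01. The 2076 DEGs (720 up, 1356 down) became 871 (214 up, 657 down) when edgeR's glmTreat tested against a fold change of 2. They became 2891 (1111 up, 1780 down) when counts were divided by the size at which low counts of a library cluster. Over fits that left out 1 library, DEGs ranged from 1262 to 2370, with 376 to 958 up and 886 to 1412 down, the lowest without PyMT replicate 1. List genes that rose (87) were 43 with glmTreat, 135 with the divided counts and 52 to 114 without 1 library, and those that fell (184) were 151 to 191 without 1 library. Other tests gave 2701 (exact test), 2837 (likelihood ratio), 2921 (DESeq2) and 2724 (limma voom) DEGs, and leaving out muscle markers from the scaling, 2069. There were 2077 with RLE size factors, 2066 with upper-quartile scaling, 1945 with library size only, 2105 with edgeR's filterByExpr, 2194 with no filter, 2740 with all 24 samples in 1 fit, and 1969 without both libraries numbered 3, an alternative chosen after seeing the data.

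Counts of week differences were 7, 3 and 20 in DESeq2 (against week 8, week 12 and the mean) where edgeR gave 1, 0 and 1, and 2 against the mean without a filter on low counts. Without 1 library they ranged from 1 to 10, 0 to 10 and 1 to 30, the highest values of each without FVB replicate 1. The cause was not tested.

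PyMT and FVB samples share replicate numbers. Neither the labels nor the study's methods pair the mice, so the main fit had no replicate block. Deviations of same-numbered samples correlated at 0.116, 0.0639 and 0.164, and every sample correlated best with its own number. Whether the numbers pair mice was not tested. With the replicate block there were 2013 DEGs (725 up, 1288 down), 1801 of them shared with the fit without it, and week differences of 1, 0 and 1.

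Genes near 0 are limited by the zeros of single libraries: FVB replicate 3 had 4.40% of middling genes at 0 with 8126373 counts in all, while PyMT replicate 1 had 0.05% with 8271870.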

Other observations

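Several list genes did not reach the expression filter and so had no test, and their raw counts are given as values. Csn1s2b, a casein, had 53 counts in PyMT and 0 in FVB, 16.5-fold higher against the floor. Glycam1, a mucin-like milk protein, had 453 against 1, a ratio of 422 (95% counting interval 75.4 to 16706). Its PyMT counts were 186 in replicate 1, 267 in replicate 3 and 0 in replicate 2. Tnfsf11 (RANKL), the ligand that progesterone induces in the gland, had 3 counts in PyMT and 252 in FVB, a ratio of 90.2 (30.5 to 440) with FVB as the higher group, and its FVB counts were 240, 12 and 0 in replicates 1, 2 and 3. The neutrophil chemokines Cxcl5 and Cxcl2 had 0 counts in PyMT and 317 and 133 in FVB, with every FVB count in replicate 1. Against the floor PyMT was 113-fold and 47.6-fold lower. Mmp13, a collagenase, had 63 counts in PyMT and 0 in FVB, 19.6-fold higher against the floor. Its PyMT counts were 47 in replicate 1, 16 in replicate 3 and 0 in replicate 2. Folds are scaled by the size factors, with a floor of 3 counts over a group at 0, and the floor takes counts as independent.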
